A study of Arabidopsis thaliana with 28 samples.

Results

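Transcripts of cell-wall genes from the expansin, XTH, GH9 and TBL families were measured in seedlings of Arabidopsis thaliana that overexpressed a CBF transcription factor or were given cold. A gene was included if its symbol on the array began with EXPA, EXPB, EXLA, EXLB, XTH, GH9 or TBL followed by its number, and if its log2 level was above 4 in at least 4 of the 28 samples. Of 64 such genes with a named probe set, 38 passed the level rule, out of 14578 features tested in all. They were 7 EXPA, 2 EXPB, 2 EXLA, 1 EXLB, 6 XTH, 5 GH9 and 15 TBL genes, each read by 1 probe set.

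All plants were of the accession Ws-2, and the tissue was the entire aerial part. The groups, with 4 samples each, were warm plants overexpressing CBF1, CBF2 or CBF3 (CBF1OX, CBF2OX and CBF3OX), plants overexpressing the truncated protein CBF2Δc kept warm or given cold (CBF2DN warm and CBF2DN cold), wild type given cold and wild type kept warm. Plants grew on agar for 11 d under constant light (about 100 µmol m-2 s-1) at 22 °C, and the cold plants then spent 24 h at 4 °C under weaker light (about 35 µmol m-2 s-1), so cold, lower light and greater age cannot be told apart. Each construct came in 2 transgenic lines with 2 samples per line, and the first line named here holds samples 1 and 2. CBF1OX plants were of lines G5 and G39, CBF2OX plants of lines E2 and E24, CBF3OX plants of lines A28 and A30, and CBF2DN plants of lines DN89 and DN96. The sources used here do not give the promoter of the constructs or the number of plants pooled.

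Growing plant cells are held by a wall of cellulose microfibrils in a matrix of hemicellulose and pectin, and growth requires this network to yield. Expansins loosen the wall without cutting its polymers, and they are grouped into α-expansins (EXPA), β-expansins (EXPB) and expansin-like proteins (EXLA and EXLB), for which loosening activity has not been established. XTH enzymes cut xyloglucan, the main hemicellulose of leaf walls, and rejoin the cut end to another chain or to water. GH9 proteins are endo-1,4-β-glucanases, and TBL proteins belong to the family of enzymes that transfer acetyl groups to wall polysaccharides. CBF1, CBF2 and CBF3 are AP2/ERF transcription factors that drive part of the cold response, and plants with high CBF activity are known for small growth, which makes growth-related wall genes of interest here. In the TBL family, ESKIMO1 (TBL29) is known from a mutant with raised freezing tolerance, but it is not among the named genes used here.

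The values are log2 levels made by the authors with GCRMA, a background correction that holds dim probe sets near a floor of 2.16, so levels under about 4 are close to background. A level of 1 probe set cannot be set against that of another. Array medians lay between 4.98 and 5.08, and arrays of a group correlated with each other at 0.953 to 0.991. The constructs could not be checked by name, because no probe set carries the symbol of CBF1, CBF2 or CBF3 alone. Of the markers of other tissues, 7 of 7 leaf and shoot genes were above 4 in all 28 samples, and 3 of 3 pollen and flower genes (EXPB1, EXPB5 and SHT) were above it in 0 samples. Of 4 root and root hair genes, PYK10 and NAI2 were above 4 in all 28 samples, at 10.38 to 12.46 and 5.34 to 8.12, whereas the root hair expansins EXPA7 and EXPA18 stayed between 2.79 and 4.80. The tissue was aerial, and EXPA7 and EXPA18 belong to the wall genes, so this list cannot be read as a measure of root tissue. The xylem list held only 2 named genes and is too short to read.

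The 26 genes that missed the level rule were EXLA3, EXPA16, EXPA21, EXPA24, EXPB1, EXPB5, 10 GH9 genes (GH9A3, GH9A4, GH9B5, GH9B6, GH9B11, GH9B12, GH9B16, GH9B17, GH9B18 and GH9C3), 7 TBL genes (TBL15, TBL19, TBL20, TBL21, TBL35, TBL42 and TBL43), XTH26, XTH29 and XTH33. The nearest to the rule from outside was EXLA3, above 4 in 2 samples with a highest value of 4.33. The nearest from inside was TBL26, above 4 in 7 samples with a highest value of 4.71, followed by EXPA7 (8 samples), EXPA9 (9 samples) and EXPA18 (11 samples). The current RefSeq set (assembly TAIR10.1) holds 125 genes with these symbols, so the 64 named genes are only part of the families. Of the families, GH9 lost the most genes at the level rule, 10 of 15. Within the set, TBL28 and TBL30 are next to each other in the genome, as are XTH18 and XTH19.

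A gene was called in a comparison if its change was at least 2-fold and its limma p, adjusted by Benjamini-Hochberg over all 14578 features, was below 0.05, and rose and fell are used below for called genes alone. In 11 comparisons between groups, 13 of the 38 genes were called at least once and 25 were never called. The share of all features called at least once was not computed, so these counts cannot be set against it. Shares for each comparison are given below. XTH20 was called in 5 comparisons and EXLA2 in 4, while TBL45, XTH16 and XTH32 were each called in 3. EXPA8 had the widest range of group means of the 38, 5.52 on the log2 scale, between 3.40 ± 0.81 in cold CBF2DN plants and 8.92 ± 0.30 in warm wild type (SD, n = 4 each). TBL16 had the narrowest, 0.18.

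In wild-type plants, 24 h of cold lowered 8 of the 38 wall genes and raised 2. The genes that fell were the α-expansins EXPA8 and EXPA4, the β-expansin EXPB3, the endoglucanase gene GH9B13, XTH16 and the acetyltransferase-family genes TBL25, TBL36 and TBL45, by 3.03-fold to 35.5-fold. XTH20 and the expansin-like gene EXLA2 rose. Over all features tested, 9.67% fell and 8.74% rose in the same comparison. Called in either direction were 2684 of the 14578 features and 10 of the 38 wall genes (26.3%). The median change was -0.135 over the 38 genes and -0.04 over all features. In RNA of whole shoots, fewer cells of a type and less RNA per cell cannot be told apart.

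Among the α-expansins, EXPA8 stood at 3.44, 3.78, 3.38 and 4.46 in cold wild type, against 8.56, 9.29, 8.96 and 8.85 in warm wild type. The groups were far apart, and the change was -5.15 ± 0.47 on the log2 scale (SE, adjusted p = 1.56e-09). Since 3 of the 4 cold samples lay under 4, the size of the fall depends on the background floor. EXPA4 stood at 5.69, 5.39, 4.66 and 4.92 in cold wild type, against 7.23, 6.81, 7.24 and 7.20 in warm wild type. Its lowest warm sample was still above its highest cold sample, a change of -1.96 ± 0.25 (adjusted p = 3.7e-07). Of the other 5 α-expansins, EXPA7 changed by -0.66 (adjusted p = 0.0442), short of 2-fold, and the changes of EXPA9, EXPA15, EXPA18 and EXPA20 lay between -0.43 and 0.14.

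The β-expansin gene EXPB3 stood at 5.07, 5.28, 5.07 and 4.58 in cold wild type, against 6.66, 6.69, 6.66 and 6.53 in warm wild type, without overlap. It fell by 1.64 on the log2 scale (SE 0.24, adjusted p = 2.5e-06). The other β-expansin, EXPB2, differed by 0.19 (95% interval -0.15 to 0.54, adjusted p = 0.358). The expansin-like genes did not move as 1 group. EXLA2 stood at 6.56, 5.81, 6.53 and 6.69 in cold wild type, against 3.78, 3.99, 4.15 and 4.17 in warm wild type, where 2 samples were under the level of 4. It rose by 2.38 ± 0.47 (adjusted p = 0.000128), whereas EXLA1 differed by 0.04 (interval -0.60 to 0.68) at levels between 8.54 and 10.31. EXLB1 differed by 0.62 (adjusted p = 0.0426), below the 2-fold limit.

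The XTH genes also went both ways. XTH20, whose product is known to take part in the rejoining of cut stem tissue, stood at 9.07, 9.55, 9.44 and 9.31 in cold wild type, against 6.56, 6.26, 6.76 and 6.33 in warm wild type. All cold samples were above all warm ones, a change of 2.87 ± 0.43 or 7.29-fold (adjusted p = 4.2e-06). XTH16 stood at 4.81, 3.27, 3.77 and 3.79 in cold wild type, against 5.84, 5.48, 5.80 and 5.80 in warm wild type. It fell by 1.82 (SE 0.27, adjusted p = 3.95e-06), with 3 of its cold samples under 4. XTH21 changed by -0.63 (adjusted p = 0.0033), XTH32 by 0.40 (adjusted p = 0.2), and the neighbours XTH18 and XTH19 by -0.19 and 0.11, none of them called.

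Of the endoglucanase genes, GH9B13 stood at 5.20, 4.71, 4.94 and 3.45 in cold wild type, against 6.99, 7.19, 7.23 and 6.99 in warm wild type. The groups did not overlap, and the change was -2.53 ± 0.27 (adjusted p = 2.26e-08), the second in size among the genes that fell. The other 4 did not pass: GH9B8 differed by 0.72 (adjusted p = 0.0331), GH9C1 by -0.58 (adjusted p = 0.115), and GH9B7 and GH9C2 differed by 0.04 and 0.06.

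Of the 15 TBL genes, 3 fell and 0 rose in cold wild type. TBL25, one of the members known to acetylate mannan, stood at 7.06, 6.31, 6.34 and 6.25 in cold wild type, against 8.16, 8.36, 8.25 and 8.14 in warm wild type. The change was -1.74 ± 0.13 (adjusted p = 5.21e-11), with the highest cold sample more than 1 log2 unit under the lowest warm one. TBL45 stood at 7.03, 6.49, 6.64 and 6.37 in cold wild type, against 8.20, 8.58, 8.43 and 8.36 in warm wild type, a change of -1.76 ± 0.20 (adjusted p = 7.79e-08). TBL36 stood at 5.99, 6.32, 5.84 and 6.33 in cold wild type, against 7.75, 7.48, 7.90 and 7.75 in warm wild type, a change of -1.60 ± 0.22 (adjusted p = 1.01e-06). Neither TBL45 nor TBL36 had overlapping groups. TBL28, TBL32, TBL34 and TBL37 had an adjusted p below 0.05 with changes of -0.98, -0.59, 0.56 and 0.89, short of 2-fold. TBL28 and TBL32 belong to the branch known to acetylate xylan, as does TBL34.

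**Figure D1:**
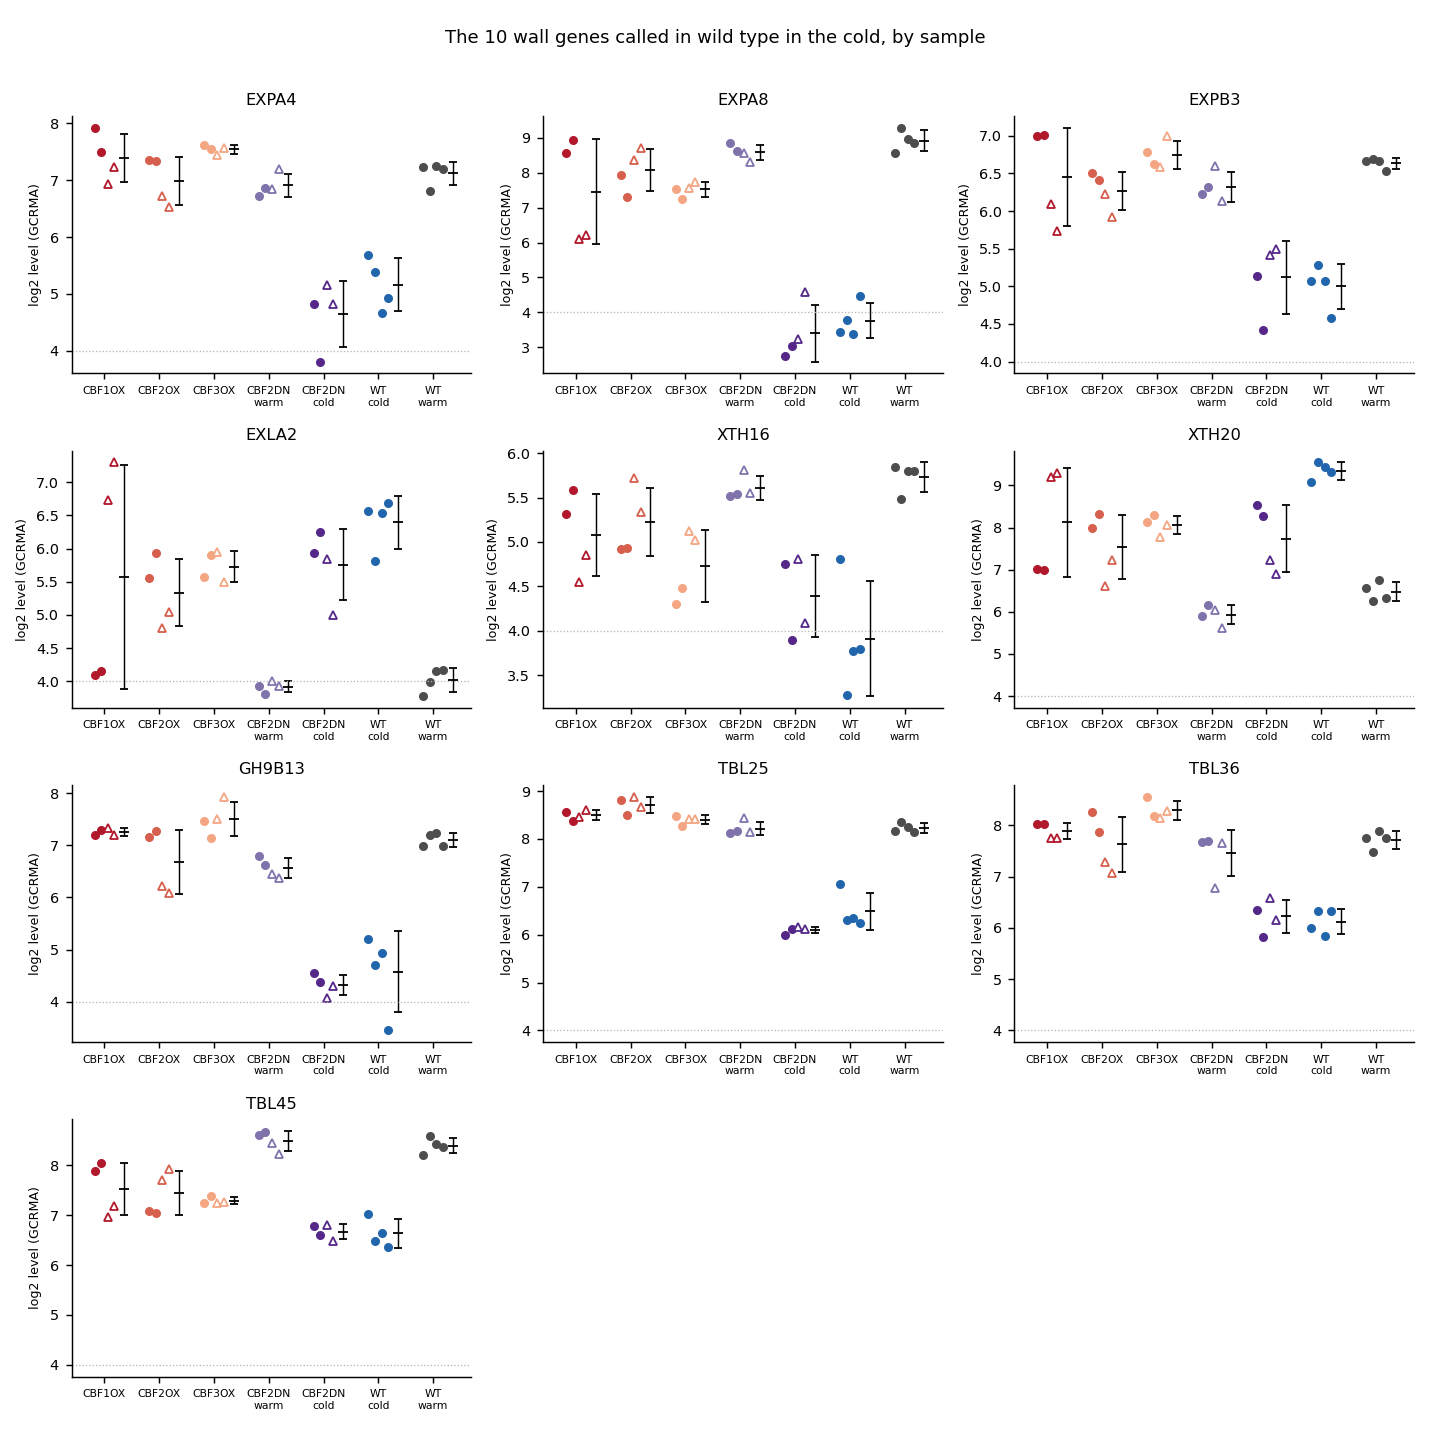
Log2 levels (GCRMA) in all 28 samples of the 10 wall genes called in cold wild type, by group. Filled circles are samples of the first line (or of wild type), open triangles samples of the second line, black bars the mean ± SD of 4 samples, and the dotted line the level of 4. In 8 panels the cold samples of wild type and of CBF2DN lie below the warm samples of the same genotype. In those of XTH20 and EXLA2 they lie above them. In CBF1OX the lines lie apart for XTH20, EXLA2 and EXPA8.

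The cold response was measured again in plants overexpressing CBF2Δc, in a comparison that shares no sample with that of wild type. In cold CBF2DN plants 8 of the 38 genes fell and 3 rose, against warm CBF2DN plants. Over all features, 8.99% fell and 9.08% rose. All 10 genes called in wild type were called here in the same direction, which is 90.9% of the 11 genes called in CBF2DN. Over all features, 76.5% of the wild-type calls were called in the same direction in CBF2DN. The changes of the 38 genes in the 2 genotypes correlated at r = 0.961 (Spearman's rho 0.902), next to 0.936 and 0.905 over all 14578 features, where the points of each comparison share their 8 samples.

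EXPA8 stood at 2.75, 3.03, 3.23 and 4.57 in cold CBF2DN plants, against 8.85, 8.62, 8.58 and 8.31 in warm ones, a change of -5.20 ± 0.47 (adjusted p = 1.34e-09). Most of its cold samples lay under 4, so here too the size of the fall depends on the background floor. EXPA4 stood at 4.82, 3.81, 5.15 and 4.83 in cold CBF2DN plants, against 6.73, 6.86, 6.85 and 7.20 in warm ones, a change of -2.26 ± 0.25 (adjusted p = 3.65e-08). Both α-expansins thus fell in the cold in either genotype, without overlap. GH9B13 stood at 4.55, 4.37, 4.08 and 4.30 in cold CBF2DN plants, against 6.80, 6.63, 6.44 and 6.38 in warm ones, a change of -2.24 ± 0.27 (adjusted p = 1.63e-07). TBL25 stood at 6.0, 6.11, 6.16 and 6.11 in cold CBF2DN plants, against 8.12, 8.17, 8.43 and 8.15 in warm ones, a change of -2.12 ± 0.13 (adjusted p = 1.65e-12). Its groups were far apart, and those of GH9B13 did not overlap either.

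TBL45 stood at 6.78, 6.60, 6.81 and 6.49 in cold CBF2DN plants, against 8.60, 8.67, 8.45 and 8.23 in warm ones, and fell by 1.82 on the log2 scale (adjusted p = 4.58e-08). XTH16 stood at 4.75, 3.90, 4.81 and 4.09 in cold CBF2DN plants, against 5.52, 5.54, 5.81 and 5.55 in warm ones, and fell by 1.22 (adjusted p = 0.00056). The groups of both genes were apart. EXPB3 stood at 5.14, 4.42, 5.42 and 5.49 in cold CBF2DN plants, against 6.23, 6.32, 6.60 and 6.14 in warm ones, and fell by 1.21 (adjusted p = 0.000138). TBL36 stood at 6.35, 5.83, 6.58 and 6.15 in cold CBF2DN plants, against 7.68, 7.70, 6.78 and 7.66 in warm ones, and fell by 1.23 (adjusted p = 4.04e-05). These 2 falls are the least secure: without cold sample 2 the change of EXPB3 was -0.97, and in line DN96 alone the changes of EXPB3 and TBL36 were -0.92 and -0.86, all with an adjusted p below 0.05 but under 2-fold.

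Of the genes that rose, EXLA2 stood at 5.94, 6.25, 5.85 and 5.0 in cold CBF2DN plants, against 3.93, 3.81, 4.01 and 3.93 in warm ones, a change of 1.84 ± 0.47 (adjusted p = 0.00179). Most of its warm samples lay under 4, so the size of this rise depends on the background floor. XTH20 stood at 8.53, 8.27, 7.23 and 6.89 in cold CBF2DN plants, against 5.90, 6.15, 6.04 and 5.62 in warm ones, a change of 1.80 ± 0.43 (adjusted p = 0.00106). Both rises were without overlap. TBL37 was the gene called here and not in wild type, at 9.21, 9.03, 9.55 and 8.97 in cold CBF2DN plants, against 7.33, 7.66, 7.63 and 8.15 in warm ones, a change of 1.5 ± 0.22 (adjusted p = 2.43e-06). Its change in wild type, at 8.24, 8.22, 7.91 and 8.06 in the cold against 7.36, 6.94, 7.26 and 7.33 in warmth, was 0.89 ± 0.22 (adjusted p = 0.00128).

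The difference between the cold responses of the genotypes, tested as an interaction, was called for 0 of the 38 genes (0.0274% of all features). By limma, 2 of the 38 had an unadjusted p below 0.05, 1 EXPB gene and 1 TBL gene, and 0 of the XTH genes did. TBL37 and XTH20 are given here because they were called in the direct comparison below. For TBL37 the difference was 0.61 ± 0.31 (adjusted p = 0.563) and for XTH20 -1.06 ± 0.61 (adjusted p = 0.631), with a 95% interval from -2.32 to 0.20 for XTH20.

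**Figure D2:**
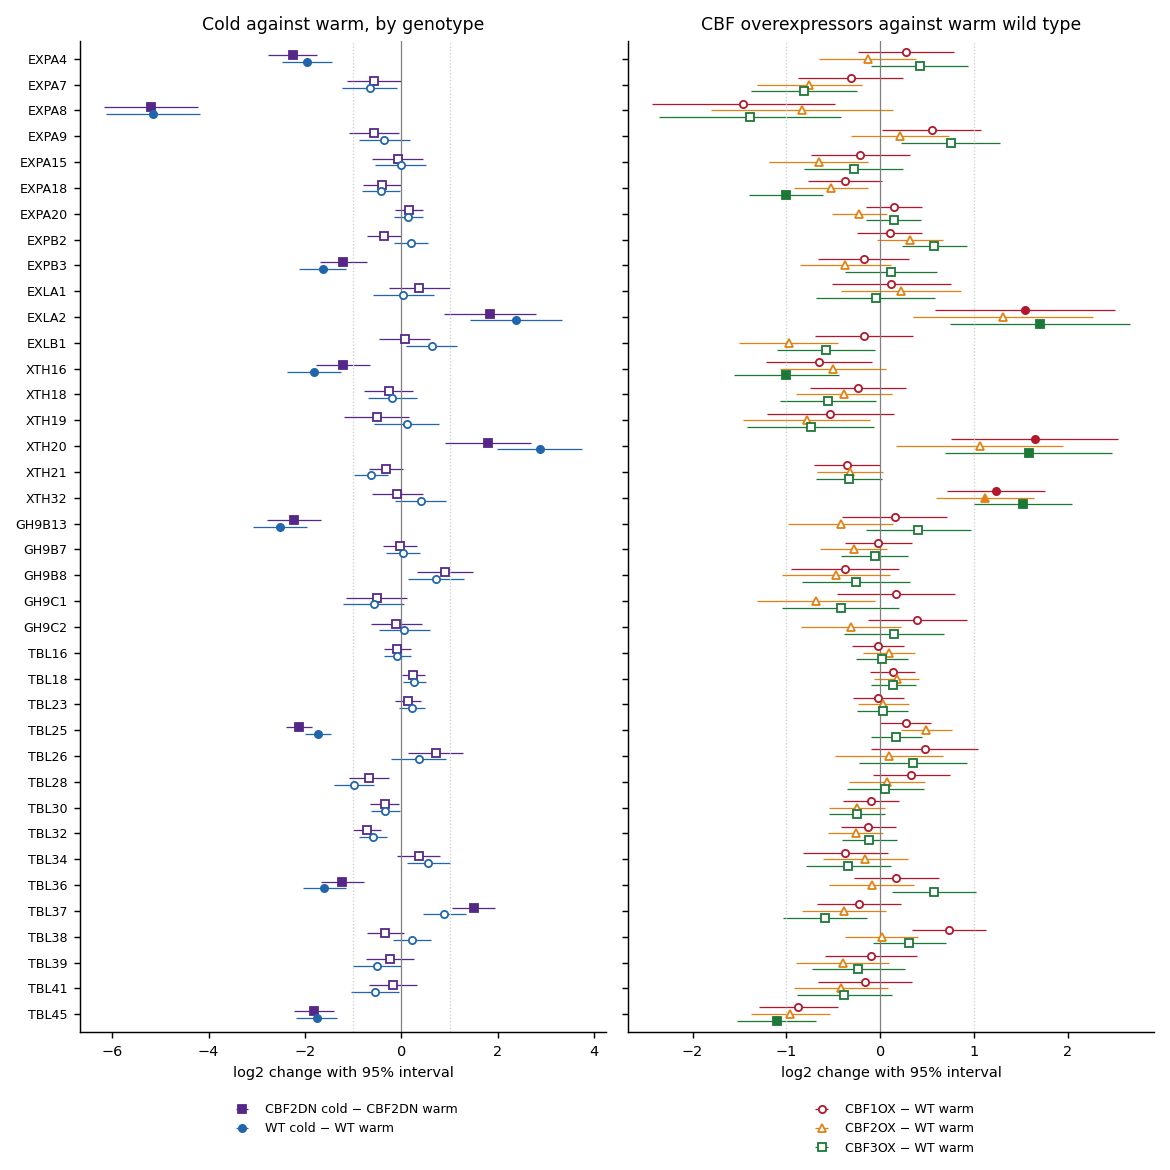
Log2 changes with 95% intervals of the fit for all 38 wall genes, in the cold by genotype (left) and in warm overexpressors against warm wild type (right). Filled symbols are called genes, and dotted lines mark 2-fold. On the left the filled symbols of the genotypes sit together, and on the right the filled symbols are few and none lies beyond 1.71 from 0.

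Compared directly in the cold, CBF2DN plants differed from wild type in 2 of the 38 genes. TBL37 was higher at 9.21, 9.03, 9.55 and 8.97 in cold CBF2DN plants, against 8.24, 8.22, 7.91 and 8.06 in cold wild type, with no overlap. The change was 1.08 ± 0.22 (adjusted p = 0.00461), and it was 1.01 in line DN89 and 1.15 in line DN96. Without cold CBF2DN sample 3 it was 0.96 (adjusted p = 0.0255), just under 2-fold. XTH20 was lower at 8.53, 8.27, 7.23 and 6.89 in cold CBF2DN plants, against 9.07, 9.55, 9.44 and 9.31 in cold wild type, again with no overlap. The change was -1.61 ± 0.43 (adjusted p = 0.028). Over all features 0.391% rose and 0.446% fell in this comparison. The median over the 38 genes was -0.25, and 0.04 over all features.

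The XTH20 difference rested mostly on line DN96. It was -2.28 ± 0.19 in DN96 alone (adjusted p = 4.74e-08) and -0.94 in DN89 alone (adjusted p = 0.00813), and in the cold the lines differed by -1.34 (DN96 minus DN89, adjusted p = 0.00215). This was the single gene of the 38 called between these lines in the cold (1.1% of all features). With line means as samples its adjusted p was 0.117. The call ended without cold CBF2DN sample 3 or 4 (adjusted p = 0.0969 and 0.0826) and without cold wild-type sample 2, 3 or 4 (adjusted p = 0.0735, 0.0588 and 0.0513). In line DN89 alone 1 of the 38 genes differed from cold wild type and in DN96 2 did (0.686% and 2.76% of all features).

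In warmth, CBF2DN plants differed from wild type in 0 of the 38 genes (0.0206% of all features), with 6 at an unadjusted p below 0.05 by limma. XTH20 stood at 5.90, 6.15, 6.04 and 5.62 in warm CBF2DN plants, against 6.56, 6.26, 6.76 and 6.33 in warm wild type, which did not overlap, at a change of -0.55 (interval -1.44 to 0.34, adjusted p = 0.975). The interval uses a spread shared by all groups, and the SD of XTH20 was 1.30 in CBF1OX but 0.23 in each group compared here. Taken alone, line DN89 had 0 calls by limma (0.0274% of all features), with 4 genes at an unadjusted p below 0.05. Line DN96 had 2 (1.18%), EXPA7 at -1.11 and the endoglucanase gene GH9C1 at -1.18, both near the level of 4. The lines differed from each other in 0 of the 38 genes in warmth (0.919% of all features), with 10 at an unadjusted limma p below 0.05. Against its own warm samples, DN89 had 12 genes called in the cold and DN96 had 10 (19.2% and 18.1% of all features).

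**Figure D3:**
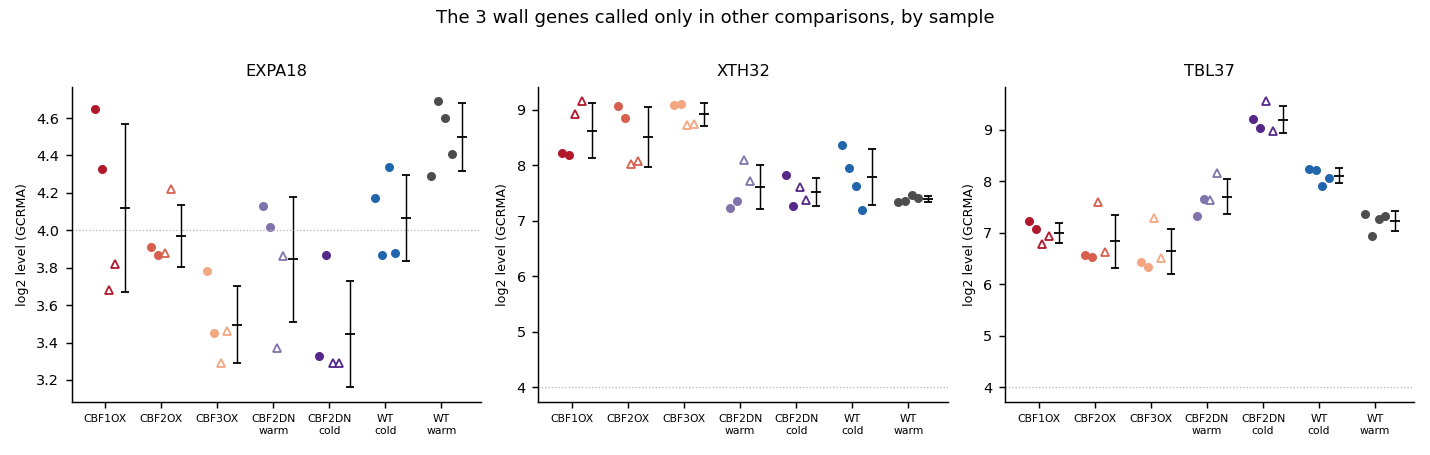
Log2 levels (GCRMA) in all 28 samples of EXPA18, XTH32 and TBL37, the wall genes called in other comparisons than cold against warm wild type; symbols are as in the plot of the 10 cold genes. XTH32 is highest in the overexpressors, TBL37 in the cold with CBF2DN above wild type, and EXPA18 lies around the level of 4 in every group.

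By group, overexpression of CBF1, CBF2 or CBF3 in warm plants changed fewer of these genes than cold did, and 1 gene was called in all 3 groups. The same held over all features, of which 8.74% rose and 9.67% fell in cold wild type, against the smaller shares given below. XTH32, in the branch of the family thought to hold xyloglucan hydrolases, rose by 1.23 in CBF1OX, 1.12 in CBF2OX and 1.52 in CBF3OX. XTH20 and EXLA2 rose in CBF1OX and CBF3OX, and XTH16, EXPA18 and TBL45 fell in CBF3OX. CBF1OX thus had 3 genes up and 0 down (1.8% and 0.727% of all features), CBF2OX 1 up and 0 down (1.71% and 0.789%), and CBF3OX 3 up and 3 down (1.94% and 1.66%). The 3 comparisons share the warm wild-type samples. The median changes of the 38 genes were -0.02, -0.27 and -0.06 in CBF1OX, CBF2OX and CBF3OX.

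XTH32 stood at 8.22, 8.19, 8.92 and 9.15 in CBF1OX, 9.07, 8.85, 8.02 and 8.08 in CBF2OX and 9.09, 9.10, 8.72 and 8.74 in CBF3OX, against 7.34, 7.35, 7.46 and 7.40 in warm wild type. Every overexpressor sample was above every warm wild-type sample. The changes had a standard error of 0.25 and adjusted p = 0.0049, 0.00804 and 0.000419. In the cold, by contrast, the gene was not called in either genotype, at 0.40 in wild type (interval -0.13 to 0.92) and -0.09 in CBF2DN (interval -0.61 to 0.44). In CBF2OX the XTH32 call ended without sample 1 (0.93, adjusted p = 0.0512). With line means as samples it ended in CBF1OX (adjusted p = 0.0662) and CBF2OX (adjusted p = 0.0839). Fitted with only the groups compared, its adjusted p in CBF1OX was 0.057.

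XTH20 stood at 7.02, 6.98, 9.21 and 9.29 in CBF1OX and 8.12, 8.29, 7.77 and 8.07 in CBF3OX, against 6.56, 6.26, 6.76 and 6.33 in warm wild type, without overlap. The changes were 1.65 ± 0.43 (adjusted p = 0.0233) and 1.59 ± 0.43 (adjusted p = 0.0211). In CBF2OX the gene stood at 7.98, 8.33, 6.62 and 7.22, with sample 3 inside the wild-type range, and its change of 1.06 did not pass (adjusted p = 0.173). EXLA2 stood at 4.10, 4.15, 6.73 and 7.30 in CBF1OX and 5.57, 5.90, 5.95 and 5.50 in CBF3OX, against 3.78, 3.99, 4.15 and 4.17 in warm wild type. The CBF1OX samples thus overlapped wild type in line G5 and lay far above it in line G39. The changes were 1.55 ± 0.47 in CBF1OX (adjusted p = 0.0486) and 1.71 ± 0.47 in CBF3OX (adjusted p = 0.0215). In CBF2OX EXLA2 stood at 5.55, 5.93, 4.81 and 5.05, above all wild-type samples, but its change of 1.31 did not pass (adjusted p = 0.109).

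These calls depended on single samples and on how the lines were treated. With the mean of each line taken as 1 sample, adjusted p was 0.109 for XTH20 and 0.162 for EXLA2 in CBF1OX, and 0.0896 for XTH20 and 0.0899 for EXLA2 in CBF3OX, so all of them ended. The EXLA2 call in CBF1OX also ended with the line as a random block (adjusted p = 0.0514) and with a replicate block (adjusted p = 0.0624). In CBF1OX the XTH20 call ended without sample 3 or 4 (1.29 and 1.26, adjusted p = 0.15 and 0.162) and without warm wild-type sample 1, 2 or 4 (adjusted p = 0.0501, 0.0671 and 0.0642). The EXLA2 call ended without CBF1OX sample 3 or 4 (1.16 and 0.97, adjusted p = 0.265 and 0.301) and without any 1 of the warm wild-type samples (adjusted p from 0.0822 to 0.12). In CBF3OX the XTH20 call ended without CBF3OX sample 1 or 2 or warm wild-type sample 2 or 4 (adjusted p = 0.053, 0.0628, 0.0615 and 0.0543), at changes from 1.51 to 1.57. The EXLA2 call there ended without CBF3OX sample 2 or 3 or warm wild-type sample 1 or 2 (adjusted p = 0.0599, 0.0544, 0.0597 and 0.0511), at changes from 1.63 to 1.70.

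Of the genes that fell in CBF3OX, TBL45 stood at 7.25, 7.39, 7.25 and 7.27, against 8.20, 8.58, 8.43 and 8.36 in warm wild type, a change of -1.10 ± 0.20 (adjusted p = 0.00111). The groups were apart, and the call held in all 20 alternatives. In CBF1OX and CBF2OX the changes of TBL45 were -0.88 (adjusted p = 0.0118) and -0.96 (adjusted p = 0.00465), short of 2-fold, at 7.88, 8.04, 6.97 and 7.18 in CBF1OX and 7.08, 7.04, 7.70 and 7.92 in CBF2OX. All 12 overexpressor samples of TBL45 lay under the lowest warm wild-type sample.

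XTH16 stood at 4.30, 4.48, 5.12 and 5.02 in CBF3OX, against 5.84, 5.48, 5.80 and 5.80 in warm wild type, and EXPA18 at 3.78, 3.45, 3.29 and 3.46 in CBF3OX, against 4.29, 4.69, 4.60 and 4.41. Both changes were at the 2-fold limit, -1.0 ± 0.27 for XTH16 (adjusted p = 0.0215) and -1.0 ± 0.19 for EXPA18 (adjusted p = 0.00146). The XTH16 call ended without CBF3OX sample 1 or 2 or warm wild-type sample 1, 3 or 4 (changes from -0.98 to -0.86) and with line means as samples (adjusted p = 0.116), and the EXPA18 call without CBF3OX sample 2, 3 or 4 or warm wild-type sample 2 or 3 (changes from -0.99 to -0.93). Both calls also ended with quantile normalization. The XTH16 call further ended without the filter on low values and in line A30 alone, and the EXPA18 call in line A28 alone. EXPA18 lay under 4 in all 4 CBF3OX samples, so its size of change depends on the floor. EXPA18 is itself 1 of the 4 root and root hair markers and was the only one of them called in CBF3OX, where 1.66% of all features fell. The other root hair expansin, EXPA7, differed by -0.81 (adjusted p = 0.0626), while NAI2 and PYK10 differed by 0.04 (adjusted p = 0.951) and -0.12 (adjusted p = 0.858).

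EXPA8, the α-expansin with the steepest fall in the cold, stood at 8.58, 8.94, 6.09 and 6.22 in CBF1OX, 7.94, 7.32, 8.37 and 8.70 in CBF2OX and 7.54, 7.24, 7.57 and 7.75 in CBF3OX, against 8.56, 9.29, 8.96 and 8.85 in warm wild type. The group changes of -1.46, -0.83 and -1.39 did not pass (adjusted p = 0.0699, 0.375 and 0.0661). All CBF3OX samples of EXPA8 nevertheless lay under all warm wild-type samples. The test shares 1 spread over all groups, and the SD was 1.51 in CBF1OX, 0.21 in CBF3OX and 0.30 in warm wild type. EXPA4 differed by 0.28, -0.13 and 0.42, EXPB3 by -0.18, -0.37 and 0.12, and GH9B13 by 0.15, -0.42 and 0.41, none of them called, and for EXPA4 and GH9B13 all 6 intervals excluded a 2-fold fall. TBL25 stood higher by 0.49 in CBF2OX (adjusted p = 0.0266), under 2-fold, while it fell by 1.74 in cold wild type. The comparison of overexpressors with each other called 0 of the 38 genes for CBF1OX against CBF2OX (0.0343% of all features, 6 at an unadjusted limma p below 0.05), CBF1OX against CBF3OX (0.0206%, 3 such genes) and CBF2OX against CBF3OX (0.0206%, 7 such genes).

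The group means of CBF1OX and CBF2OX hid wide gaps between lines. In CBF1OX, line G39 differed from line G5 in 9 of the 38 genes (5.89% of all features), with 3 higher and 6 lower in G39. EXLA2 differed by 2.89 ± 0.27 (adjusted p = 1.58e-07), XTH20 by 2.25 (adjusted p = 1.89e-07) and EXLA1 by 1.19 (adjusted p = 0.0372). EXPA8 was lower in G39 by a change of -2.61 (adjusted p = 1.55e-05), at 6.09 and 6.22 in G39 against 8.58 and 8.94 in G5. XTH19, at 7.45 and 7.22 in G39 against 8.97 and 8.75 in G5, differed by -1.53 (adjusted p = 0.00127). EXPB3, EXLB1, GH9B8 and EXPA15 differed by -1.09, -1.05, -1.05 and -1.01. Each line has 2 samples, and these comparisons use a fit in which all lines share 1 estimate of the spread.

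In CBF2OX, line E24 differed from line E2 in 2 of the 38 genes (2.3% of all features). XTH20 was lower in E24, at 6.62 and 7.22 against 7.98 and 8.33 in E2, a change of -1.24 (adjusted p = 0.00144). EXPA9, near the background, differed by -1.01 (adjusted p = 0.0421). In CBF3OX the lines A30 and A28 differed in 0 of the 38 genes (0.00686% of all features), with 1 gene at an unadjusted limma p below 0.05.

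Set against warm wild type 1 line at a time, with the warm wild-type samples shared by all, G5 and E24 had 0 wall genes called (0.521% and 2.37% of all features), with 9 and 15 genes at an unadjusted limma p below 0.05, while G39 had 8, E2 8, A28 6 and A30 6 (8.06%, 5.17%, 4.53% and 3.77%). In lines G39, E2, A28 and A30, XTH20 changed by 2.77, 1.68, 1.73 and 1.44, EXLA2 by 2.99, 1.72, 1.71 and 1.70, and XTH32 by 1.65, 1.57, 1.71 and 1.34. In the same lines EXPA8 changed by -2.76, -1.29, -1.53 and -1.26 and TBL45 by -1.32, -1.33, -1.07 and -1.13, all of them called. In G5 and E24 the corresponding changes were 0.52 and 0.44 for XTH20, 0.10 and 0.91 for EXLA2, 0.82 and 0.66 for XTH32, -0.15 and -0.38 for EXPA8, and -0.43 and -0.58 for TBL45, of which EXLA2 and TBL45 in E24 had an adjusted p below 0.05. Further calls were TBL38 up and XTH16 and XTH19 down in G39, XTH19, EXLB1 and EXPA7 down in E2, XTH16 down in A28 and EXPA18 down in A30. Construct level by line could not be read by name, so its part in these gaps was not tested.

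**Figure D4:**
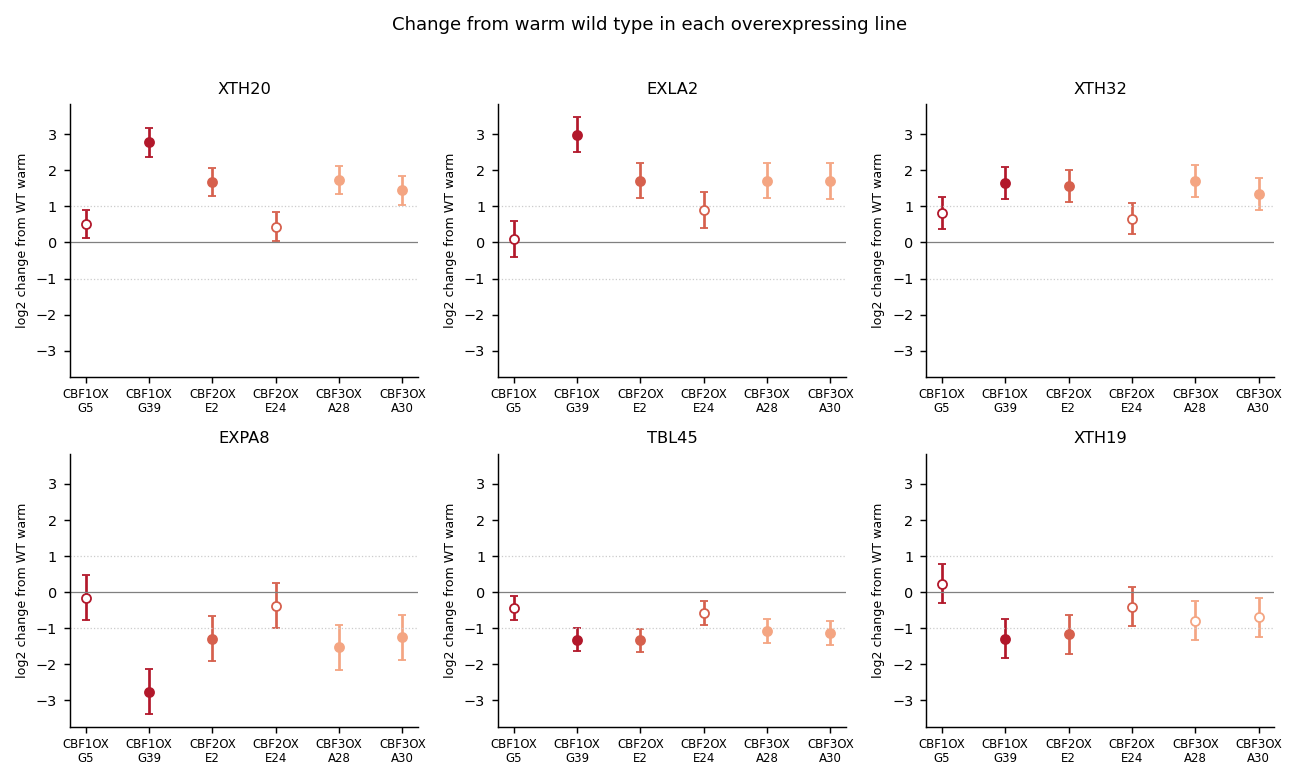
Log2 change from warm wild type, with 95% intervals of the fit, of 6 wall genes in each of the 6 overexpressing lines (2 samples per line, 4 of wild type). Filled symbols are called genes and dotted lines mark 2-fold. XTH20, EXLA2 and XTH32 lie above 2-fold and EXPA8 and TBL45 below it in G39, E2, A28 and A30, while the points of G5 and E24 lie between the dotted lines in every panel.

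The 25 genes that were never called between groups included 11 of the 15 TBL genes. Their group means spanned from 0.18 for TBL16 to 1.6 for EXLB1 on the log2 scale. Among the narrower ones, TBL16 stayed between 4.59 and 4.76, TBL23 between 5.24 and 5.49, TBL18 between 6.30 and 6.74 and TBL30 between 6.0 and 6.47. GH9B7 stayed between 7.67 and 8.16 and EXLA1 between 9.04 and 9.41. In 6 of the 25 the means spanned more than 1 log2 unit. EXLB1 ran from 4.99 in CBF2OX to 6.59 in cold wild type, and GH9B8 from 3.99 in warm CBF2DN plants to 5.20 in cold wild type. The other 4 were lowest in cold CBF2DN plants: TBL28 at 3.76 against 5.33 in CBF1OX, GH9C1 at 3.58 against 4.82 in CBF1OX, EXPA9 at 2.93 against 4.44 in CBF3OX, and EXPA7 at 3.17 against 4.31 in warm wild type. EXLB1 was lower in CBF2OX by a change of -0.97 (adjusted p = 0.0224), TBL38 higher in CBF1OX by 0.74 (adjusted p = 0.0218) and EXPB2 higher in CBF3OX by 0.58 (adjusted p = 0.032), all under 2-fold. Among genes next to each other, XTH18 and XTH19 changed by -0.56 and -0.74 in CBF3OX and -0.39 and -0.79 in CBF2OX, none of them called.

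By family, in cold wild type 4 of 12 expansin and expansin-like genes were called (1 up, 3 down), 2 of 6 XTH genes (1 up, 1 down), 1 of 5 GH9 genes (down) and 3 of 15 TBL genes (all down), where 8.74% of all features rose and 9.67% fell. In CBF3OX the same counts were 2 of 12 (1 up, 1 down), 3 of 6 (2 up, 1 down), 0 of 5 by limma (0 at an unadjusted p below 0.05) and 1 of 15 (down), where 1.94% of all features rose and 1.66% fell. Families of this size are too small to be set apart by such counts.

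Other genes of wall building and growth were taken from symbol lists, which reached few named genes. Of 7 genes of hemicellulose synthesis and trimming, 1 fell in cold wild type and 2 in cold CBF2DN plants, where 9.67% and 8.99% of all features fell, so that a single call in a list of this size is near the share of all features. CSLA03, of the mannan synthase family, fell to 4.91 in cold wild type against 6.80 in warm wild type (-1.89 ± 0.28, adjusted p = 2.99e-06) and to 4.05 in cold CBF2DN plants against 6.92 in warm ones (-2.87). CSLC04, of the xyloglucan backbone synthase family, fell by 1.26 in cold CBF2DN plants (adjusted p = 2.69e-07). The pectin list took 6 genes by symbol alone, and among them PGL34 and PMEAMT cannot be counted as pectin genes. Of the 6, 0 were called by limma in cold wild type (3 at an unadjusted p below 0.05). In CBF3OX 1 was called, the pectin methylesterase gene ATPMEPCRB, which rose by 1.12 (adjusted p = 0.0195), where 1.94% of all features rose. On the list for extensins and proline-rich proteins, HRGP1 fell by 1.11 in cold CBF2DN plants (adjusted p = 0.0155), where 8.99% of all features fell. The other matches, PEX4, PRP39 and PRP39-2, were taken by symbol alone and cannot be counted as wall protein genes. The growth hormone list took 8 genes by symbol alone, and HAT3.1 among them cannot be counted as a growth hormone gene. Of the 8, 1 fell in cold wild type and 1 in cold CBF2DN plants. Over all features 9.67% and 8.99% fell there. In both it was IAA18, an Aux/IAA repressor of auxin response, by 1.18 and 1.36. In CBF1OX and CBF3OX the 1 gene that fell was HAT2, an auxin-inducible homeodomain gene, by 1.21 and 1.37. There 0.727% and 1.66% of all features fell. COB, for cellulose orientation, was not called, and neither was EXGT-A3, an XTH gene under an older symbol.

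A further TBL gene, listed on the array as AT2G31110 and in RefSeq as TBL40, was found by its RefSeq synonym after values had been seen and is not counted above. It fell to 4.53 in cold wild type, against 6.38 in warm wild type (-1.86 ± 0.27, adjusted p = 3.06e-06), and by 1.82 in cold CBF2DN plants. It fell by 1.10 in CBF1OX and 1.07 in CBF3OX, and its change in CBF2OX was -0.90 (adjusted p = 0.0555).

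Levels of the leaf and shoot markers stood lower in the cold samples of both genotypes. In cold wild type all 7 had negative changes (median -0.53), 5 had an unadjusted p below 0.05 and 1, LHCB4.2, was called, where 9.67% of all features fell. Their mean level per sample ran from 10.76 to 11.12 in cold wild type, against 11.53 to 11.69 in warm wild type. In cold CBF2DN plants all 7 again had negative changes (median -0.53), 6 had an unadjusted p below 0.05 and 1 was called, where 8.99% of all features fell. Their means ran from 10.77 to 11.16 in cold CBF2DN plants, against 11.58 to 11.78 in warm ones. In the overexpressors 0 of 7 were called by limma in each group (1, 0 and 0 at an unadjusted p below 0.05 in CBF1OX, CBF2OX and CBF3OX), with means per sample from 10.91 to 11.90 in CBF1OX, 11.56 to 11.69 in CBF2OX and 11.35 to 11.67 in CBF3OX. The root and root hair list had 0 of 4 genes called by limma in cold wild type, though all 4 had an unadjusted p below 0.05, with means per sample from 6.12 to 6.58 in the cold and from 6.74 to 7.21 in warmth. It had 2 of 4 called in cold CBF2DN plants, NAI2 and PYK10, where 8.99% of all features fell, with means from 5.54 to 6.07 in the cold and from 6.22 to 7.18 in warmth. The part of tissue make-up in the wall gene changes was not tested.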

How the data were processed

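RNA was hybridised to Affymetrix arrays, and the authors deposited 1 log2 value for each probe set and sample. GCRMA and limma are named in the submitters' processing notes without versions, and joint processing of the arrays is not stated there. Values run from 2.16 to 14.53, a range from which the log2 scale was inferred, and 11.6% sit at the lowest. The table holds 22810 probe sets, of which 64 are controls and were left out, 13513 name 1 gene, 503 several and 8730 none. Each gene was represented by its brightest probe set on average. A level above 4 in at least 4 samples was required for testing, which left 14578 features, of them 7898 named genes.

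A limma model (lmFit and eBayes, limma 3.58.1, R 4.3.3) with 7 group means was fitted to all 28 samples, and a second with 12 means, 1 for each line in each condition and each wild-type group, served the comparisons of lines. A call needed a Benjamini-Hochberg adjusted p below 0.05 and a change of at least 2-fold. Errors of levels are SDs of 4 samples and errors of changes are standard errors of the fit. The titles call the samples of a group biological replicates without saying what was repeated. The p-values thus reflect only the spread within groups (or lines), pooled for each gene over the whole fit. In the group fit this spread includes gaps between lines. A gene with a wide gap in 1 group is therefore tested less sharply in every comparison. The number of arrays limits the precision. The script was tested on simulated data. Figures used Python 3.11.15 and matplotlib 3.10.9.

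The wall genes, the gene lists and the rule for named genes (every gene called in a comparison between groups, with its values) were chosen with earlier results of these data known. Alternatives were quantile normalization, other filters, the call rule, a replicate block, only the compared groups, the line as a random block or as a mean, each sample left out and, added after values were seen, single lines. As a check of pairing, deviations of same-numbered samples correlated from -0.29 to 0.38 over the comparisons. Only in CBF2DN cold against warm did all 4 exceed 0.1 (0.152 to 0.283), where the same numbers are the same lines, and the replicate block there changed no count of calls by over 1.5 times. Promoter sequences were not analysed here.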

Additional observations from a re-analysis of the deposited data

Results flagged for a closer look

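In 11 of 91 groups of 4 samples (13 called genes in 7 groups), 1 sample lay apart from the other 3 by Dixon's criterion, which chance gives in about 1 in 20 groups. These were EXPA18 in CBF2OX sample 4 at 4.22 (others 3.87 to 3.91) and in cold CBF2DN sample 2 at 3.87 (others 3.29 to 3.33), and EXPA4 in warm wild-type sample 2 at 6.81 (others 7.20 to 7.24). TBL25 stood at 8.43 in warm CBF2DN sample 3 (others 8.12 to 8.17) and at 7.06 in cold wild-type sample 1 (others 6.25 to 6.34). TBL36 stood at 6.78 in warm CBF2DN sample 3 (others 7.66 to 7.70). TBL37 stood at 7.60 in CBF2OX sample 3 (others 6.53 to 6.63) and at 7.28 in CBF3OX sample 3 (others 6.34 to 6.5). TBL45 stood at 7.39 in CBF3OX sample 2 (others 7.25 to 7.27). XTH16 stood at 5.81 in warm CBF2DN sample 3 (others 5.52 to 5.55) and at 5.48 in warm wild-type sample 2 (others 5.80 to 5.84).

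In 12 cases, 2 lines of the same construct differed by the test between lines. Between G39 and G5 the log2 differences were 2.89 for EXLA2, 2.25 for XTH20, 1.19 for EXLA1, -2.605 for EXPA8, -1.525 for XTH19, -1.095 for EXPB3, -1.05 for EXLB1, -1.05 for GH9B8 and -1.01 for EXPA15. Between E24 and E2 they were -1.235 for XTH20 and -1.01 for EXPA9, and between DN96 and DN89 in the cold -1.34 for XTH20. XTH20 thus differed between the lines of 3 of the 4 constructs. What sets the lines apart was not tested.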

How the results depend on the processing

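Of 636 values of called wall genes under the alternatives, 568 kept their call, 68 lost it and 0 changed sign, and all 10 cold calls in wild type held under each. With the adjusted p alone and no minimum fold, 18 genes passed in cold wild type, 5 in CBF1OX, 4 in CBF2OX and 6 between E24 and E2. Without the filter on low values the counts were 1 in CBF1OX, 3 in CBF3OX, 1 in CBF2DN against wild type in the cold and 1 between E24 and E2, where more features enter the adjustment. With only the groups compared they were 0 in CBF1OX, 2 in CBF2OX and 1 for CBF2DN in the cold, and with line means as samples 0, 0, 3 and 1 in CBF1OX, CBF2OX, CBF3OX and CBF2DN in the cold; both use fewer samples. With single lines they were 8 in G39 and 0 in G5, 8 in E2 and 0 in E24, 2 in DN96 warm and 1 in DN89 cold. With the replicate block 5 genes were called between G39 and G5, of 9 without it, and 1 between E24 and E2, of 2, and the counts between groups stayed within 1.5 times; no pairing is stated for most of these numbers. Leaving out 1 sample at a time gave 1 to 5 calls in CBF1OX, 0 to 3 in CBF2OX, 2 to 5 in CBF3OX, 0 to 2 for CBF2DN in the cold, 5 to 7 between G39 and G5, 0 to 5 between E24 and E2, 0 to 1 between DN96 and DN89 in warmth and 1 to 2 in the cold. The lowest counts came without CBF1OX sample 3 or 4 or warm wild-type sample 1, 2 or 4 in CBF1OX, without sample 1 in CBF2OX, without sample 2 in CBF3OX and without cold CBF2DN sample 3. The cause of these differences was not tested. Genes under a log2 level of 4 are limited by the background floor.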
